A study of Nematostella vectensis with 8 samples.

Results

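Gene expression was measured by bulk mRNA sequencing in whole gastrulae of Nematostella vectensis, the starlet sea anemone, that had been injected with a scrambled control RNA. The 4 libraries of these scramble control embryos, of 8 in the series, were taken by their labels and are described here on their own, so every value below is a baseline level and none is a response to a knockdown. All 4 came from embryos of wildtype genotype collected 28 hours after fertilization at 24 °C, each from a pool of about 1000 injected embryos, and the labels give an RNA integrity number of at least 8.0. The scrambled RNA matched the concentration of the active hairpin RNA, so the embryos carried an injected RNA and are not an uninjected wild type. Each library is a pooled whole embryo, so a low level can come from few cells with much of an RNA or from many cells with little, which cannot be told apart. Libraries are called replicates 1 to 4. The library names in the labels carry one prefix for replicates 1 and 2 and another for replicates 3 and 4, and what the prefix marks is not stated.

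Cnidocytes are the stinging cells that give Cnidaria their name. Each builds a capsule, the cnidocyst, inside a vesicle derived from the Golgi apparatus. Its wall is made largely of minicollagens, which are short collagens cross-linked through cysteine-rich ends, and its tubule contains nematogalectin. In Nematostella, cnidocytes begin to differentiate in the ectoderm by gastrulation and appear as scattered single cells, and their precursors are related to those of neurons. Transcription factors act in the precursors and in the maturing cells, and some mature cnidocytes load their capsules with toxins. The 7 cnidocyte marker genes followed here cover both sides, with 4 capsule genes (ncol3, ncol1, mcol1 and Ngal) and 3 transcription factor genes (foxE-like, znf845 and sox2).

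Library totals were 20259706, 22533900, 24084780 and 23075342 estimated counts in replicates 1 to 4. The tables list 35819 transcripts of 24520 genes. Levels are given in TPM, an abundance that is corrected for transcript length and sums to the same total in every library, so a few very abundant genes can lower all others. Replicate 2 lay at one end of the 4 libraries. The median detected gene deviated from its own mean over the 4 libraries by 0.01, -0.49, 0.26 and 0.26 on the log2 scale in replicates 1 to 4, and the 100 highest genes of each library held 47.1, 57.3, 37.9 and 40.9% of its TPM. Replicate 2 was therefore the library in which the most abundant genes took the largest share and the median gene was lowest. Several values that rest on it are given with and without it below. The ranks of the marker genes are those of means that include it.

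The scramble control transcriptome was concentrated in few genes. The genes that together held 50% of the TPM numbered 121, 63, 257 and 191 in replicates 1 to 4, and the number holding 90% was 3642, 2215, 5602 and 4888. The 100 most abundant genes of each library held 45.8 ± 8.56% of TPM (SD, n = 4), or a mean of 41.97% without replicate 2. Of estimated counts, which are not corrected for length, the 100 highest genes held 23.7 ± 4.25% (SD, n = 4). The mean TPM was 1566 for the gene at rank 100, 114 at rank 1000, 20.8 at rank 5000 and 6.73 at rank 10000.

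**Figure D1:**
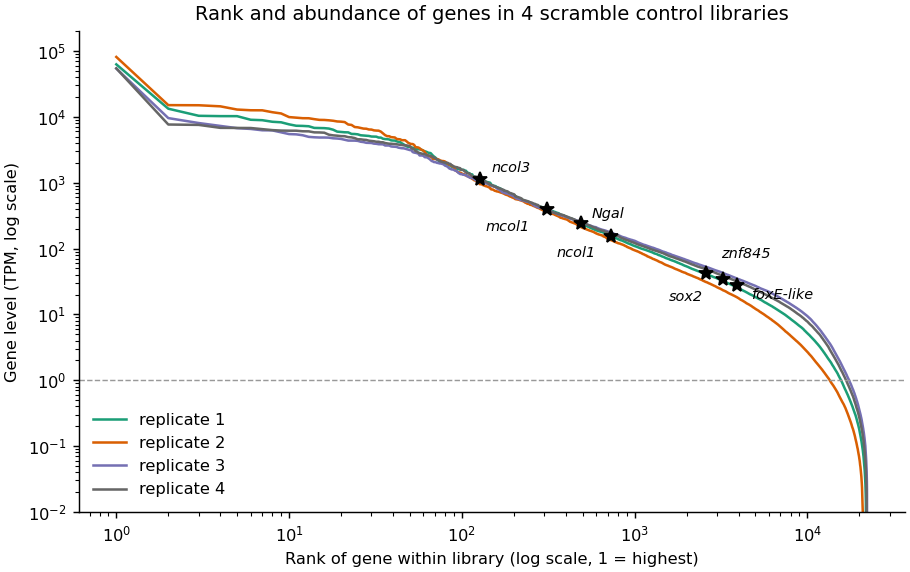
Gene level in TPM against the rank of the gene within its library, both on log axes, with 1 line for each of the 4 scramble control libraries and stars at the mean level and mean-level rank of the 7 marker genes. Replicate 2 lies above the others at the top and below them from the middle ranks on, the capsule markers sit between ranks 128 and 730, and the 3 transcription factor genes between ranks 2605 and 3896; the dashed line is at 1 TPM.

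The top of the list was made of short transcripts. Of the 100 genes with the highest mean TPM, 81 had a leading transcript under 1000 bases, the median length was 637 bases, 80 had 1 transcript and 55 were also among the 100 genes of highest estimated counts. The gene of highest TPM was NV2t001062, which the reference table used here does not name. It had 62785, 81434, 54278 and 54603 TPM in replicates 1 to 4, which is 6.28, 8.14, 5.43 and 5.46% of each library's TPM, but only 0.786, 1.25, 0.495 and 0.506% of its estimated counts. The leading transcript of NV2t001062 was 419 bases long with a mean effective length of 117 bases, the length Salmon divides by. NV2t011975, second by TPM at 11184 ± 3693 (SD, n = 4), had a transcript of 208 bases and a mean effective length of 24.6 bases, and it ranked 504 by estimated counts. Both genes thus stood higher by TPM than by estimated counts. Of the 100 most abundant genes 73 were in the top 100 of every library, and 71 had their highest value in replicate 2.

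All 4 capsule markers were among the 1000 most abundant genes. The minicollagen gene ncol3 had 1226, 704, 1216 and 1371 TPM in replicates 1 to 4, a mean of 1130 ± 292 TPM (SD, n = 4), and ranked 128 of 24520 genes. Replicates 1, 3 and 4 lay close together and replicate 2 lay below them. The minicollagen gene mcol1 had 459, 342, 318 and 471 TPM and ranked 310, with replicates 2 and 3 below replicates 1 and 4. The nematogalectin gene Ngal, for a protein of the capsule and its tubule, had 268, 253, 165 and 278 TPM and ranked 490. Replicate 3 was the low library for Ngal, and the other 3 differed by little. The minicollagen gene ncol1 had 181, 93.8, 162 and 189 TPM and ranked 730, with the same low library as ncol3. By estimated counts, in which short transcripts weigh less, ncol3 ranked 248, mcol1 ranked 1246 and ncol1 ranked 1974, all lower than by TPM, whereas Ngal ranked 325 and so stood higher than by TPM. The count sums of ncol3, mcol1, ncol1 and Ngal were whole numbers in none of the libraries although each has 1 transcript, so Salmon shared out part of the reads with transcripts elsewhere, in an amount that is unknown.

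The 3 transcription factor markers were lower and more uneven between pools. The zinc finger gene znf845 had 19.2, 6.55, 81.6 and 64.0 TPM in replicates 1 to 4 and ranked 2605 by its mean of 42.8 ± 35.7 TPM (SD, n = 4). Replicates 1 and 2 were both below replicates 3 and 4, and the highest library was 12.5-fold above the lowest. The HMG-box gene sox2 had 27.9, 12.6, 53.7 and 41.9 TPM and ranked 3270, again with replicates 1 and 2 below the other pair. The forkhead gene foxE-like had 19.99, 6.78, 44.6 and 41.4 TPM and ranked 3896, with the same division between libraries. The high-to-low fold was 4.26 for sox2 and 6.58 for foxE-like, against 1.48 to 2.01 for the 4 capsule markers. Without replicate 2 the high-to-low fold was 4.25 for znf845, 2.23 for foxE-like and 1.92 for sox2, against 1.13 to 1.69 for the capsule markers, so part of the size rested on replicate 2. Counting error alone corresponded to a coefficient of variation (CV, the SD as a percent of the mean) of 3.19% for znf845 and 3.53% for foxE-like, while their CVs between pools were 83.4% and 63.8%, or 58.6% and 37.9% without replicate 2.

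The order of the markers by mean TPM was ncol3, mcol1, Ngal, ncol1, znf845, sox2 and foxE-like. Each gene exceeded the next in 4 of 4 libraries with 1 exception, znf845, which exceeded sox2 in 2 of 4 libraries. The ranges of 3 neighbouring pairs overlapped, namely Ngal with ncol1, znf845 with sox2, and sox2 with foxE-like. Such an overlap leaves aside that both genes of a pair were measured in the same library. Within libraries, the order of znf845 changed against sox2 and also against foxE-like, which is not its neighbour by mean. The ratio of znf845 to foxE-like was 0.96, 0.97, 1.83 and 1.55 in replicates 1 to 4. The other orders could still be narrow in a single library. The smallest ratio was 1.02 for Ngal to ncol1, in replicate 3, and 1.01 for sox2 to foxE-like, in replicate 4. By estimated counts the order differed, with Ngal at rank 325 above mcol1 at rank 1246, and foxE-like at rank 5519 above sox2 at rank 5739. By TPM all 3 transcription factor markers lay below all 4 capsule markers in every library. The ratio of ncol3 to ncol1 was nearly fixed, at 6.79, 7.51, 7.51 and 7.27 in replicates 1 to 4 (7.27 ± 0.34, SD, n = 4, CV 4.71%). This was the lowest CV of the ratios of the 21 marker pairs, whose median was 50.4%, and the pair is singled out after the values were seen. The ratio of Ngal to znf845 had the highest CV, 114%, at 13.96, 38.6, 2.02 and 4.35.

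The markers belong to a collection of 42 published cnidocyte genes. An identifier of the tables was given for 38, and 30 of these 38 (78.9%) were detected, meaning at least 1 TPM in each of the 4 libraries. Over all genes the share was 52.4%. By class, 7 of 7 capsule genes, 14 of 16 transcription factor genes, 2 of 5 toxin and NEP (nematocyst expressed protein) genes and 7 of 10 other genes were detected. Summed over the class, capsule genes came to 2708, 1820, 2383 and 2940 TPM in replicates 1 to 4, transcription factor genes to 334, 226, 496 and 503 TPM, and toxin and NEP genes to 76.1, 20.3, 85.7 and 133 TPM. Capsule genes thus made up most of the collection's TPM in every library. No gene of the collection was at 0 in all 4 libraries.

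Beyond the markers, the capsule class held ncol4, a minicollagen gene with 397 ± 35.1 TPM, ggt, for a gamma-glutamyl transferase, with 124 ± 56.7 TPM, and Ncol with 17.6 ± 7.23 TPM (SD, n = 4 each). Among the transcription factor genes other than the markers, the highest level was that of foxA, a forkhead gene known in Nematostella from the pharynx and endomesoderm, with 134 ± 12.4 TPM and rank 850. It was followed by coup-like1, a nuclear receptor gene, at 42.2 ± 10.2 TPM, the paired-box gene paxA at 28.0 ± 18.4 TPM and ATF2-like1, of the basic leucine zipper family, at 24.0 ± 15.1 TPM. The lowest of that class was myc5 at 0.31 ± 0.19 TPM, which did not pass the detection level. The level of foxA was above that of each of the 3 transcription factor markers in every library.

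Of the 5 toxin and NEP genes, 3 had a mean under 1 TPM. NEP3-like had 71.0, 19.0, 73.7 and 123 TPM in replicates 1 to 4, and TX60B-like3, of a family of pore-forming toxins, had 3.41, 1.13, 10.5 and 7.52 TPM. NEP3 averaged 0.94 ± 0.81 TPM, Tx60B-like5 0.35 ± 0.23 TPM and NEP8 0.13 ± 0.11 TPM (SD, n = 4 each), so these 3 did not pass the detection level in every library. NEP8 had 0 counts in replicate 2, which allows a level of up to 0.0850 TPM there at 3 counts. Of the other genes, NVE3843 averaged 68.7 ± 19.8 TPM, NVE15733 63.5 ± 32.1 TPM, NVE13546 16.7 TPM with a range of 3.48 to 31.2 TPM and dkk3-like3, of the Dickkopf family, 12.5 ± 2.43 TPM. The lowest of them were NVE26200 at 0.98 ± 0.83 TPM and NVE17236 at 0.46 ± 0.44 TPM. The 8 genes of the collection that were not detected also included SoxA and NVE15732.

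**Figure D2:**
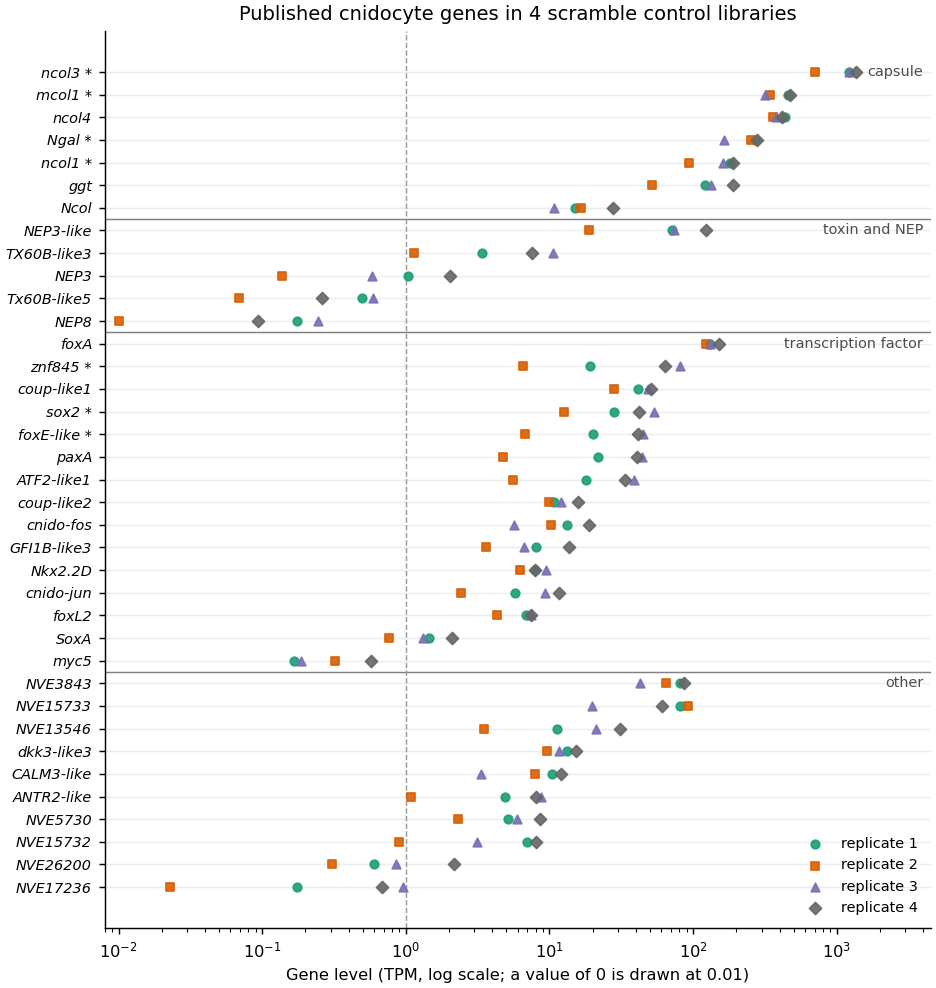
TPM on a log axis for 37 of the published cnidocyte genes with an identifier, grouped by class, with 1 point for each of the 4 scramble control libraries and an asterisk at the 7 markers; the dashed line is at 1 TPM. Replicate 2 is the lowest point for znf845, sox2, foxE-like and paxA, while replicate 3 is the lowest point for mcol1, Ngal and NVE15733.

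The low library of a cnidocyte gene depended on the gene and in part on the scale. By TPM, replicate 2 was lowest for 22 of the 30 detected genes of the collection (73.3%), against 66.0% of all 12855 detected genes. Because TPM shifts every gene when the top of a library changes, the lowest library was also found after TMM scaling of the counts and after subtracting each library's median deviation. Replicate 2 was the lowest on all 3 scales for 12 of the 30 genes, against 35.2% of all detected genes, and replicate 3 for 7 of the 30, against 21.8%. The lowest library of the other 11 genes changed with the scale. Taken singly, replicate 2 was lowest for 12 of the 30 after TMM scaling (all detected genes, 35.3%), where replicate 3 was lowest for 17 of the 30 (all detected genes, 46.1%). Replicate 2 was lowest for 17 (56.7%) relative to the median gene (all detected genes, 42.7%). Of the 14 detected transcription factor genes, 6 were lowest in replicate 2 on all 3 scales, namely znf845, sox2, foxE-like, paxA, ATF2-like1 and cnido-jun, 1 (cnido-fos) was lowest in replicate 3 on all 3, and 7 changed with the scale. Of the 7 capsule genes, ggt was lowest in replicate 2 on all 3 scales, mcol1, Ngal and Ncol were lowest in replicate 3 on all 3, and 3 changed with the scale. NEP3-like and TX60B-like3 were lowest in replicate 2 on all 3 scales. The genes ncol1 and ncol3 were lowest in replicate 2 by TPM and relative to the median gene but in replicate 3 after TMM scaling. The shares of the collection were not tested against those of all genes, and nothing about the collection is read from them.

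Of all 24520 genes, 23327 had a value above 0 in at least 1 of the scramble control libraries and 19972 in all 4. At least 1 TPM was reached by 15685, 13484, 17469 and 16789 genes in replicates 1 to 4, by 18506 genes in any library and by 12855 in every library (52.4% of the tables). Of the 2408 genes that reached 1 TPM in exactly 3 libraries, 2078 missed it in replicate 2. The 1703 genes that reached it in exactly 1 library included 1031 that did so in replicate 3. Without replicate 2, 14933 genes reached it in each of the other 3 libraries, 32 of the 38 cnidocyte genes among them. Replicate 2 thus set the number detected in all 4, although its total of estimated counts was not the smallest. At least 10 TPM was reached by 7373, 5613, 9733 and 8891 genes, and at least 100 TPM by 1094, 955, 1313 and 1222. Of the 12855 detected genes, 192 had fewer than 10 estimated counts in some library, and their median length was 404 bases.

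Most detected genes were represented by 1 transcript in the tables. More than 1 transcript was listed for 3738 of the 12855 detected genes (29.1%), against 1648 of 11665 genes not detected (14.1%). Among the 3738, 1817 genes had 2 transcripts, 903 had 3, 447 had 4, 215 had 5 and 356 had over 5, with a maximum of 71. The transcript with the highest mean held a median of 83.8% of the gene's TPM, with quartiles of 63.5 and 96.5%. The median was 91.6% for genes of 2 transcripts and 56.4% for genes of over 5. The leading transcript was the same in all 4 libraries for 2932 genes (78.4%), and the median SD of its share between pools was 5.60 percentage points. At least 2 transcripts reached a mean of 1 TPM in 2300 of the 3738 genes (61.5%).

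**Figure D3:**
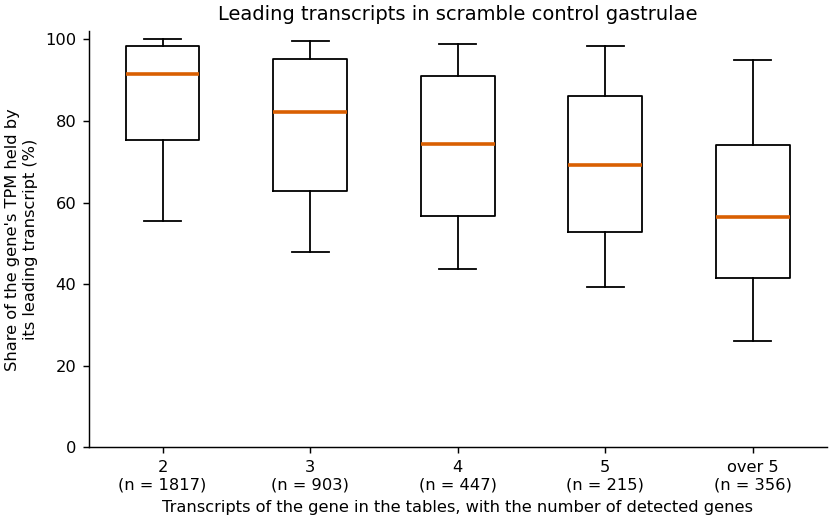
Share of a gene's TPM held by its leading transcript, as percent, for detected genes of 2, 3, 4, 5 and over 5 transcripts; boxes span the quartiles over genes, orange lines are medians and whiskers reach the 5th and 95th percentiles. The medians fall from 91.6% at 2 transcripts to 56.4% at over 5.

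Of the 38 cnidocyte genes, 31 had 1 transcript, including 6 of the 7 markers. The exception was znf845, with 2 transcripts, of which the leading one held 97.9, 98.1, 99.3 and 98.6% of its TPM in replicates 1 to 4. The paired-box gene paxA had 4 transcripts. Its leading transcript held 67.3, 36.8, 75.1 and 71.4% of the TPM in replicates 1 to 4, so its share in replicate 2 was lower than in the other 3 libraries.

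Pools differed from each other by far more than counting error. The median CV over the 12855 detected genes was 30.8%, with quartiles of 17.6 and 53.9%. A CV under 10% was found for 1083 genes (8.42%), over 50% for 3640 genes (28.3%) and over 100% for 179 genes (1.39%). Without replicate 2 the median CV of the same genes was 21.6%. In genes of 3 to 10 TPM the median CV was 36.1%, against 6.26% from counting error. In genes of 100 to 300 TPM it was 22.9%, against 1.503%. The spread estimated from the counts by edgeR, the common biological coefficient of variation, was 49.7% over all 4 libraries, 37.2% without replicate 2, 39.5% between replicates 1 and 2 and 29.2% between replicates 3 and 4. Whether the pools came from separate spawnings is not stated, so the spread may be biological or technical.

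**Figure D4:**
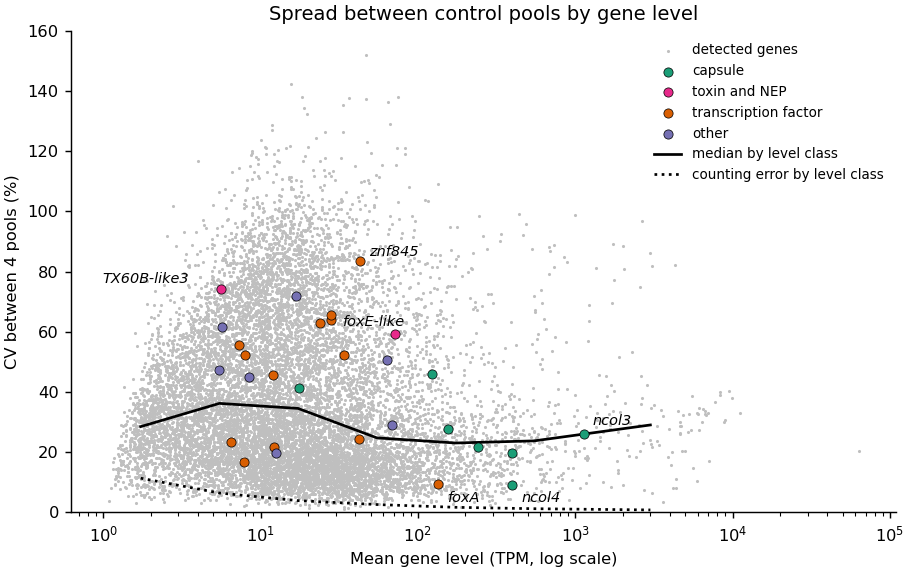
CV of TPM between the 4 scramble control pools, in percent, against mean level in TPM on a log axis for each detected gene (grey), with detected cnidocyte genes coloured by class. The solid line is the median by level class and the dotted line the CV from counting error alone. The solid line lies far above the dotted one at every level, znf845 has the highest CV of the coloured points at 83.4%, and ncol4 and foxA lie near 9%.

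By TPM, cnidocyte genes ranged from very even to very uneven between pools. The median CV of the 30 detected genes of the collection was 45.3%, beside 30.8% over all detected genes. By class it was 25.9% for capsule genes, 48.9% for transcription factor genes, 66.7% for the 2 toxin and NEP genes and 47.2% for the others. Without replicate 2 the medians were 20.4% for capsule genes, 32.3% for transcription factor genes, 41.3% for the 2 toxin and NEP genes and 34.3% for the others, beside 29.7% over the collection and 21.6% over all detected genes. The CV of ncol3 was 25.9% with replicate 2 and 6.84% without it, and that of ncol1 was 27.6% with it and 7.80% without it. The lowest CVs by TPM were those of ncol4 with 8.83%, which had 437, 359, 378 and 413 TPM in replicates 1 to 4, and foxA with 9.28%, which had 130, 122, 131 and 151 TPM. Both were less even after TMM scaling of the counts. On that scale ncol4 had 249, 310, 148 and 174 CPM in replicates 1 to 4, and foxA had 199, 288, 138 and 174 CPM. The highest CV by TPM was that of znf845. Among all genes of at least 10 TPM on average, the highest CV was that of NV2t019295, which was at 0, 0, 1320 and 0 TPM, followed by NV2t000765 at 1.20, 0, 104 and 5.71 TPM. Both of those genes were high in replicate 3. The value of NV2t000765 in replicate 3 rested on 76.9 estimated counts for a transcript of 278 bases, whereas that of NV2t019295 rested on 5133.

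Libraries of one prefix were not always nearest to each other. Over the detected genes, Spearman's rho was 0.919 between replicates 1 and 2, 0.957 between replicates 3 and 4, 0.944 between replicates 1 and 4, and 0.685 between replicates 2 and 3, described across genes that are not independent. The median gene differed 1.21-fold between replicates 3 and 4 and 1.87-fold between replicates 2 and 3. More than 2-fold differences were seen in 879 genes (6.84%) of the first pair and in 6009 genes (46.7%) of the second. The 4 libraries therefore lay along a series from replicate 2 through replicates 1 and 4 to replicate 3, and the first principal component, with 91.4% of the variance, had scores of -119, -13.6, 50.3 and 82.8 in that order. The counts of every pair of libraries differed by more than sampling noise, so none was treated as 1 library deposited in duplicate. That the 4 are separate samples rests on the labels.

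This order of the libraries moved with transcript length. In genes whose leading transcript was 5000 bases or more, the median log2 deviation from the gene's mean was -0.17, -1.69, 1.27 and 0.59 in replicates 1 to 4. In genes under 500 bases it was 0.001, 0.21, -0.10 and -0.017. Long genes were thus low in replicate 2 and high in replicates 3 and 4, while short genes went the other way by less. With at least 10 estimated counts in each library, genes under 500 bases deviated by 0.38 in replicate 2 and -0.23 in replicate 3. The median CV was lowest, 22.4%, in genes of 1000 to 2000 bases and highest, 71.7%, at 5000 bases or more. Among genes of 10 to 100 TPM alone, the deviation at 5000 bases or more was -2.06 in replicate 2 and 1.54 in replicate 3. At that level genes under 500 bases (n = 114) did not go the other way, with -0.093 in replicate 2 and 0.19 in replicate 3. Genes of 500 to 1000 bases did, with 0.20 in replicate 2 and -0.18 in replicate 3. Without replicate 2, deviations from the mean of the other 3 libraries at 5000 bases or more were -0.76, 0.70 and 0.066 in replicates 1, 3 and 4. After the median of its length class was taken from each deviation, 53.3% of the squared deviation over detected genes was left. The RNA integrity of single libraries is given only as a lower limit, and the part of RNA quality, library preparation or the embryos in this pattern was not tested.

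**Figure D5:**
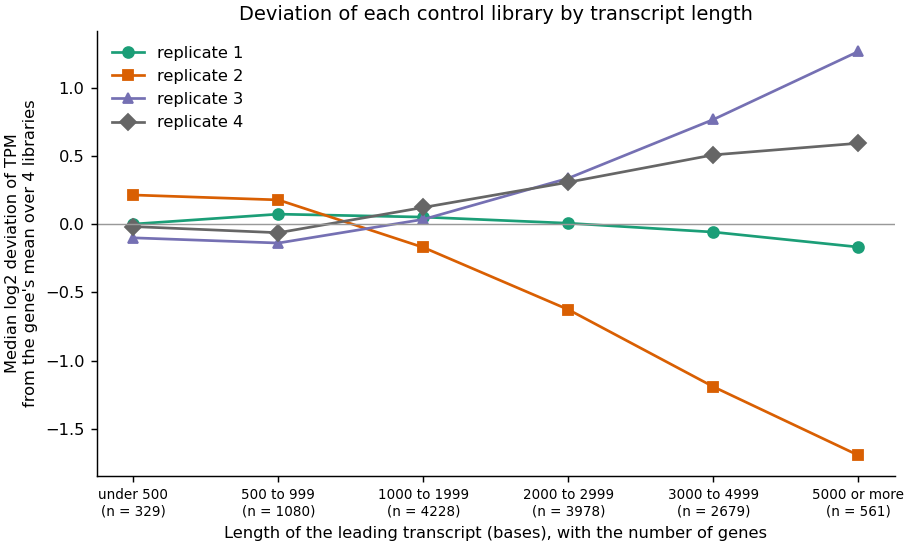
Median log2 deviation of TPM from the gene's mean over the 4 scramble control libraries, by length class of the leading transcript in bases, with 1 line per library and the number of detected genes under each class. Replicate 2 falls to -1.69 and replicate 3 rises to 1.27 in the longest class, while the 4 libraries lie between -0.10 and 0.21 in the shortest.

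The 3 transcription factor markers lay below the median of their length class in replicate 2. Their log2 deviation there, less the median of the length class, was -1.95 for znf845, -1.55 for foxE-like and -1.07 for sox2. For the capsule markers it was -0.86 for ncol1, -0.82 for ncol3, -0.37 for mcol1 and 0.27 for Ngal. Over the collection, 21 of 30 detected genes lay below their length class in replicate 2, with a median of -0.37, and 16 of 30 in replicate 3, beside 50% of all detected genes in each, which the use of the class median fixes. The median in replicate 2 was -0.37 for the 7 capsule genes, -0.39 for the 14 transcription factor genes, -1.59 for the 2 toxin and NEP genes and 0.084 for the 7 other genes. This is a description of 4 libraries, and the collection was not set against other lists.

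No gene passed the study's thresholds (an adjusted p of 0.05 and a fold limit of 1.5) between the prefixes in the edgeR quasi-likelihood test. Of 19207 genes tested, 0 were lower (0.0%) and 0 were higher (0.0%) in replicates 1 and 2 than in replicates 3 and 4, and the smallest adjusted p was 0.126. At an unadjusted p of 0.05 with the same fold limit, 3632 genes were lower (18.9%) and 2613 higher (13.6%). DESeq2 called 2597 genes lower (11.1%) and 1040 higher (4.46%) at the same thresholds. Leaving out a library gave the edgeR test calls in every case, 8355 without replicate 1, 553 without replicate 2, 148 without replicate 3 and 1813 without replicate 4, each with 1 prefix at 1 sample that is assumed to vary like the other prefix. The count of 0 therefore rested on every one of the 4 libraries. For any single value an exact two-sided permutation test of 2 against 2 libraries cannot give a p below 1 in 3.

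No gene of the collection was called by edgeR. The change of largest size among the markers was that of znf845, with a log2 fold change of -1.82 ± 0.44 (SE) and an adjusted p of 0.126 in edgeR, and foxE-like had -1.03 ± 0.42 (adjusted p of 0.149 in edgeR). In the opposite direction, Ngal had 1.03 ± 0.43 (adjusted p of 0.153 in edgeR) and mcol1 had 0.79 ± 0.37 (adjusted p of 0.181 in edgeR). The log2 fold change was below 0 for 13 of the 30 detected genes of the collection and above 0 for 17, none of them called. The direction over the collection turned with the scale. By TPM, 17 of the 30 had both values of replicates 1 and 2 below both of replicates 3 and 4, beside 54.2% of all detected genes, and 1 had both above, beside 16.5%. After TMM scaling 9 had both below, beside 29.6% of all detected genes, and 14 had both above, beside 48.8%. Relative to the median gene 9 had both below, beside 38%, and 8 had both above, beside 37.9%. DESeq2 called 3 of the 38 genes of the collection, znf845 and NVE17236 lower and NVE15733 higher in replicates 1 and 2. Over all genes it called 11.1% lower and 4.46% higher, so the 3 calls are not read as a result about the collection. NVE17236 was under 1 TPM in every library, with 16, 3, 76 and 56 estimated counts in replicates 1 to 4. NVE15733 had 80.9 and 92.7 TPM in replicates 1 and 2, against 19.7 and 60.6 TPM in replicates 3 and 4.

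Outside the collection, the genes of smallest p were present under one prefix and at or near 0 under the other. NV2t025136 had 0 and 0 estimated counts in replicates 1 and 2, against 684 and 1069 in replicates 3 and 4. NV2t000047 had 0 and 1.77 estimated counts in replicates 1 and 2, against 926 and 434 in replicates 3 and 4. In the other direction, NV2t017622 had 227 and 197 estimated counts in replicates 1 and 2, against 0 and 0 in replicates 3 and 4. NV2t010439 had 169 and 325 in replicates 1 and 2, against 0 and 0 in replicates 3 and 4. Their adjusted p was 0.126 in edgeR, so none of these 4 genes was called.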

How the data were processed

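RNA of 4 pools of scramble control gastrulae was sequenced as 150 bp paired-end reads, which the sequencing provider trimmed and filtered. Quantification by the authors used Salmon on the Galaxy platform with Nvec200 transcripts, and they deposited, per transcript, TPM, estimated counts (expected read numbers that need not be whole), and lengths as other values. Both Salmon and DESeq2 are named in the submitters' processing notes. Versions, strand setting and bias options: not given in the sources used here. The 4 knockdown libraries were not used here.

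TPM and estimated counts were added up per gene, taken from characters 5 to 10 of the identifier. For edgeR, limma and DESeq2 the count sums were rounded to whole numbers. The share of genes whose sum was whole to within 0.01 was 29.9% to 41.9%, so many genes shared some reads with another. A gene was detected at 1 TPM or more in each library. Spread is the SD over 4 libraries divided by the mean. Counting error is that of a Poisson count and 3 counts were taken as the floor (0.125 to 0.148 CPM), which covers counting error only. Prefixes were compared with edgeR 4.0.16 (quasi-likelihood, TMM, filterByExpr) under R 4.3.3, and by limma 3.58.1 on log2(TPM + 1) and DESeq2 1.42.0 as alternatives. Other values were computed with Python 3.11.15, pandas 2.3.3, numpy 2.4.6 and scipy 1.17.1, and drawn with matplotlib 3.10.9. The functions and the fit were tested on simulated data, the fit with less spread than these libraries had.

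Gene names came from the study's collection of published cnidocyte genes, in which the gene drawn as NVE5730 carries another NVE identifier, so that name is uncertain. The study's collection lists no classes. The grouping into capsule, toxin and NEP, transcription factor and other genes was made for this description, and all values by class rest on it. The RefSeq gene table matched 0 identifiers, so other genes are given by identifier only and no markers of other cell types could be used. The text names the 7 markers, in each class of the collection the 4 other genes of highest and the 2 of lowest mean TPM, the 2 genes of highest TPM, the 2 of highest CV at a mean of at least 10 TPM, and in the prefix comparison the called genes and the 2 of smallest p in each direction. One gene of the collection that this rule names is not reported here. Other genes named were chosen after their values were seen. The members and lists were chosen with earlier results of these data known. Alternatives covered detection levels, counts in place of TPM, scaling, filters, tools and leaving out each replicate.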

Additional observations from a re-analysis of the deposited data

Results flagged for a closer look

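Of 54 quantities examined, 3 had 1 library far from the other 3, by a gap to the nearest library beyond Dixon's critical value for 4 samples, which chance alone gives for about 1 in 20 quantities. The forkhead gene foxL2 was low in replicate 2 at 4.28 TPM, with the next library at 6.91 TPM. This held by TPM only. After TMM scaling of the counts foxL2 was lowest in replicate 3, at 7.56 CPM against 9.75 CPM in replicate 2. Relative to the median gene its log2 deviation in replicate 2 was -0.083. NV2t019295 was high in replicate 3 at 1320 TPM and at 0 in the other 3 libraries. NV2t000765 was high in replicate 3 at 104 TPM, with the next library at 5.71 TPM. NV2t019295 and NV2t000765 had been picked for their high CV, so the distance of 1 library is part of how they were chosen.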

How the results depend on the processing

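Levels in TPM and in counts gave different pictures of concentration and rank, and depth was not the limit for most detected genes. With estimated counts in place of TPM, the 100 highest genes held 23.7% and the median rank of the 7 markers, 730 by TPM, was 1974; after TMM scaling of the counts it was 1950. With a mean of at least 1 TPM required of a transcript, 2300 detected genes had more than 1. In genes of at least 10 TPM in each library the leading transcript held 89.4% and the median CV was 19.9%. After TMM scaling, added after seeing the data, 12 genes of the collection were lowest in replicate 2. DESeq2 called 2597 genes lower, 1040 higher and 3637 in all between the prefixes, and leaving out 1 replicate gave 122 to 4963 lower, 26 to 3392 higher and 148 to 8355 in all. The median log2 fold change between prefixes was -0.58 by limma on log2(TPM + 1) and -0.011 by edgeR. Of the values that answer a comparison, 58 settings stayed within a set limit and 22 moved. The limit was the spread between replicates or, for a count or the median CV, 1.5 times the value given. The number of detected genes, 12855 as given, ranged from 10531 at 2 TPM to 18506 at 1 TPM in any library. No paired analysis was possible because only 1 group of libraries is described, so no replicate numbers are shared between groups.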

Other observations

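Genes with at least 50 estimated counts in some scramble control libraries and 0 in the rest were few. There were 23 that were at 0 only in replicate 2 and 7 only in replicate 3, and 0 only in replicate 1 or only in replicate 4. A further 5 were present in replicates 1 and 2 alone, 7 in replicates 3 and 4 alone, and 5 in replicate 3 alone. None of these sets was chosen or tested for a function, and their cause was not tested.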
